A study of Mus musculus with 15 samples.

Results

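The genes described here are 10 costimulatory and checkpoint genes, ligands and receptors that act between macrophages and T cells. They were taken by name, as Cd86, Cd80, Cd40, Cd274, Pdcd1lg2, Icosl, Tnfsf9, Tnfrsf9, Vsir and Havcr2, from the 55385 genes of the count table, and all 10 were found there. Of these, 8 exceeded 1 CPM (reads of a gene scaled to a fixed library size) in all 15 libraries and entered the tests. Pdcd1lg2 and Tnfrsf9 exceeded 1 CPM in no library and have no test. RNA was sequenced from bone marrow-derived macrophages (BMDMs) of BALB/c mice whose age is given as 6 wk. STAT5fl/fl mice carry floxed Stat5a and Stat5b, and STAT5cKO mice carry in addition a Cre recombinase driven from the Csf1r promoter, which is active in macrophages and other myeloid cells. BMDMs of each genotype were kept for 2 h in serum-free medium (DMEM), in 20 ng/mL recombinant mouse GM-CSF (rmGM-CSF) or in medium conditioned by serum-starved 4T1 mammary tumor cells (4T1 CM), whose content is not defined. Each of the 3 STAT5fl/fl groups holds 2 libraries and each of the 3 STAT5cKO groups holds 3. The numbers that open the labels, 112 and 113 for STAT5fl/fl and 114, 115 and 116 for STAT5cKO, are read here as 5 mice, each seen under all 3 treatments.

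A T cell needs a second signal beside its antigen receptor, and B7 family molecules on the antigen-presenting cell provide it. CD86 and CD80 bind CD28, which stimulates, and CTLA-4, which restrains, while ICOSL binds ICOS. PD-L1, encoded by Cd274, and PD-L2, encoded by Pdcd1lg2, bind PD-1 and dampen T cell responses. CD40 is a TNF receptor family member that a macrophage displays to CD40L on helper T cells, and 4-1BBL, encoded by Tnfsf9, stimulates T cells through 4-1BB, encoded by Tnfrsf9. VISTA, encoded by Vsir, and TIM-3, encoded by Havcr2, are inhibitory receptors or ligands found on myeloid cells. GM-CSF signals through a receptor coupled to JAK2 and STAT5.

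The genes lie on 7 chromosomes of GRCm38. Cd274 (ENSMUSG00000016496, chr19:29367455-29388095) and Pdcd1lg2 (ENSMUSG00000016498, chr19:29410919-29471161) are neighbours on the plus strand of chromosome 19. Cd86 (ENSMUSG00000022901, chr16:36603869-36666081, minus strand) and Cd80 (ENSMUSG00000075122, chr16:38455561-38496335, plus strand) share chromosome 16. Icosl (ENSMUSG00000000732, chr10:78069302-78083913) and Vsir (ENSMUSG00000020101, chr10:60346851-60372684) are on chromosome 10, Cd40 (ENSMUSG00000017652, chr2:165055627-165072948) on chromosome 2 and Tnfsf9 (ENSMUSG00000035678, chr17:57105325-57107757) on chromosome 17. Tnfrsf9 (ENSMUSG00000028965, chr4:150914562-150946102) and Havcr2 (ENSMUSG00000020399, chr11:46454935-46481255) complete the set. The whole genes are given here, exons and introns together, and the counts are of reads in their exons.

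Promoter sequence is shown for 4 genes, Cd274 and its neighbour Pdcd1lg2, whose levels stand far apart, and Cd80 and Icosl, both raised by rmGM-CSF but ordered oppositely by genotype in that treatment. The Icosl difference between genotypes there was not called (adjusted p = 0.252, edgeR). The RefSeq promoter table (GRCm38.p6) held 8 entries for 7 of the 10 genes. The 250 bases before each RefSeq start were searched on both strands for TTCNNNGAA (a STAT motif), GGG, any 5 bases and CC (an NF-kB motif), TGANTCA (an AP-1 motif) and GAAA, any 2 bases and GAAA (an interferon response motif). The RefSeq start used for Cd80 lies inside the gene as the count table delimits it, downstream of the first base given above. Capitals mark the matches, and bases that the gene annotation places in an untranslated region of any gene are not printed. The stretches, all on the plus strand and written 5′ to 3′, are chr19:29367309-29367437 for Cd274, chr19:29410669-29410918 for Pdcd1lg2, chr16:38458683-38458932 for Cd80 and chr10:78069118-78069301 for Icosl.
Cd274: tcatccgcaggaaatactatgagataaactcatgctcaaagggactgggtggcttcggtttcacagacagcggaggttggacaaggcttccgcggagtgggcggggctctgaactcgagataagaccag
Pdcd1lg2: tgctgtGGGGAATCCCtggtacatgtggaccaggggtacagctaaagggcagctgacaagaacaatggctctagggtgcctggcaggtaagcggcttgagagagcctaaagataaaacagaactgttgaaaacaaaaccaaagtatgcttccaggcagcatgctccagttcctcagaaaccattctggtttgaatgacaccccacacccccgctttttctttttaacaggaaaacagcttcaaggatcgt
Cd80: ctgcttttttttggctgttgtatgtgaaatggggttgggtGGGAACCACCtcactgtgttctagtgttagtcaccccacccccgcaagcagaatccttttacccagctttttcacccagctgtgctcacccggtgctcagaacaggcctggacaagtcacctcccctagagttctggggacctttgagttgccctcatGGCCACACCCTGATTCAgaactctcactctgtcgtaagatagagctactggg
Icosl: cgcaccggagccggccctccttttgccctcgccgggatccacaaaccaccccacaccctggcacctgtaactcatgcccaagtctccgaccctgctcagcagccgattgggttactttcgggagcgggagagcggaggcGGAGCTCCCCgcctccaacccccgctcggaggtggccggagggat
The Cd274 window held none of the 4 motifs. Pdcd1lg2 held 1 NF-kB match, GGGGAATCCC. Cd80 held 2 NF-kB matches, GGGAACCACC and GGCCACACCC, and 1 AP-1 match, TGATTCA, which begins next to the second of them. Icosl held 2 NF-kB matches, of which GGAGCTCCCC lies in the stretch shown. The STAT motif was matched in 1 of the 8 entries, the second for Tnfrsf9, as TTCCAAGAA. Of 32851 promoters in the table, 7.02% held the STAT motif, 45.8% the NF-kB motif, 6.75% the AP-1 motif and 2.98% the interferon response motif. These matches are letters in a short window, and no binding was measured.

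The libraries held 16016736 to 22883108 counts, so that 1 CPM was 16 to 22.9 reads, and values below are CPM after normalization. The targeted genes followed the labels: Stat5a had 637 to 918 counts in the STAT5fl/fl libraries and 0 to 3 in the STAT5cKO libraries, and Stat5b had 977 to 1654 against 0 to 4. All 8 macrophage markers examined (Adgre1, Csf1r, Cd68, Itgam, Mertk, Fcgr1, Lyz2 and Cd14) were present. Their summed level was 24700 to 29900 CPM in STAT5fl/fl and 31100 to 46600 CPM in STAT5cKO, with no overlap. Lyz2 made up most of that sum, at 17000 to 34500 CPM over the 15 libraries. Csf1r stayed at 3830 to 4200 CPM and Cd68 at 1550 to 2030 CPM, so the gap is not one of all 8 markers. Of 8 dendritic cell markers 2 passed the filter on low counts, with Itgax at 410 to 1068 counts and Zbtb46 at 10 to 62, while Flt3 had at most 4 counts and Xcr1 at most 1. Of 8 T cell markers 3 passed the filter, led by Cd4 at 102 to 248 counts, with Lck at 11 to 37 and Cd2 at 3 to 31, and Cd3g, Cd8a and Trac were at 0 in all 15 libraries. The T cell list summed to 10.5 to 12.2 CPM in STAT5fl/fl and 7.58 to 9.35 CPM in STAT5cKO, with no overlap. Of 4 mast cell markers Kit alone was counted (Cpa3, Mcpt4 and Ms4a2 were at 0), and it too was higher in STAT5fl/fl without overlap in each treatment (15.9 to 20.1 against 4.66 to 7.49 CPM in DMEM, 19.5 to 23.6 against 3.77 to 6.13 CPM in rmGM-CSF and 6.25 to 8.18 against 1.18 to 4.07 CPM in 4T1 CM). The epithelial or 4T1 cell list, nearly all Cdh1, was at or below 0.137 CPM in DMEM, at 1.18 to 1.43 CPM in STAT5fl/fl against at most 0.0491 CPM in STAT5cKO in rmGM-CSF, and at 3.16 to 4.34 against 1.23 to 2.17 CPM in 4T1 CM. The 4 fibroblast markers summed to 0.137 to 0.39 CPM in STAT5fl/fl and 0.46 to 1.53 CPM in STAT5cKO. The part of these markers in the genotype results was not tested. The B cell, neutrophil and NK cell lists summed to at most 0.828, 2.46 and 1.13 CPM, with Pax5, Ly6g, Ncr1 and Klrb1c at 0.

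**Figure D1:**
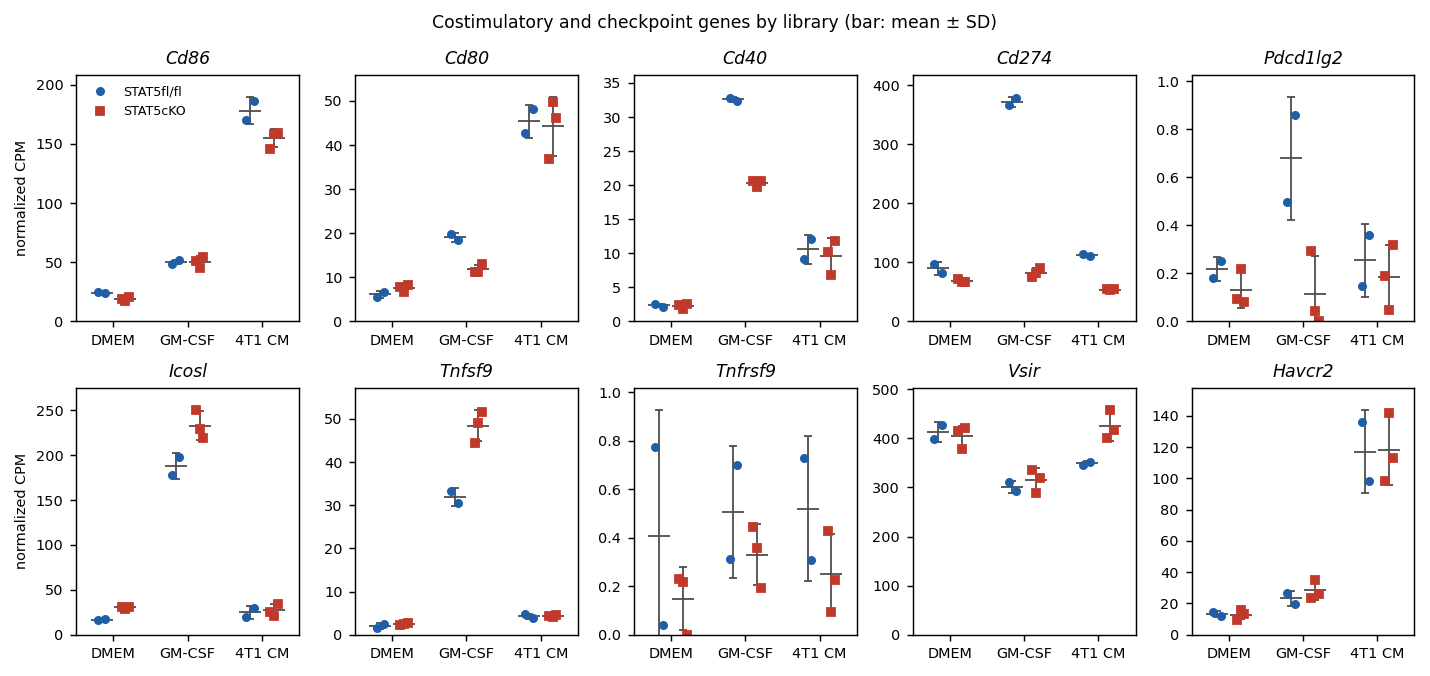
Normalized CPM (y axis, linear from 0, a scale of its own in each panel) of the 10 genes in each library by treatment (x axis), with STAT5fl/fl as circles (2 libraries a group) and STAT5cKO as squares (3 a group), and lines for the mean ± SD, cut off at 0. Cd274 in rmGM-CSF stands at 366 and 378 CPM in STAT5fl/fl and at 75.3 to 90.4 CPM in STAT5cKO.

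Scaled by exon length, which allows genes to be set side by side, the 10 genes spanned a wide range. Vsir led in DMEM, with a mean of 82.5 normalized CPM per kb in STAT5fl/fl and 80.6 in STAT5cKO. Cd274 came next in both genotypes, at 24.9 and 18.9 CPM per kb. In DMEM the other tested genes lay between 0.676 (Cd40, STAT5cKO) and 6.65 CPM per kb (Cd86, STAT5fl/fl). The order changed with treatment. In rmGM-CSF, Cd274 stood first in STAT5fl/fl at 103 CPM per kb, ahead of Vsir at 60.0, whereas in STAT5cKO it stood in place 4 at 22.9, after Vsir, Icosl and Tnfsf9. In 4T1 CM, Cd86 (48.6 and 42.2 CPM per kb) and Havcr2 (43.1 and 43.3) followed Vsir (69.6 and 84.6), in STAT5fl/fl and STAT5cKO respectively. Within each of these 2 pairs of 4T1 CM values, Cd86 and Havcr2 lay too near each other to be ordered against the spread of Havcr2, whose CPM had an SD of 26.5 (n = 2) and 22.0 (n = 3). Pdcd1lg2 and Tnfrsf9 were in the last 2 places in all 6 groups.

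**Figure D2:**
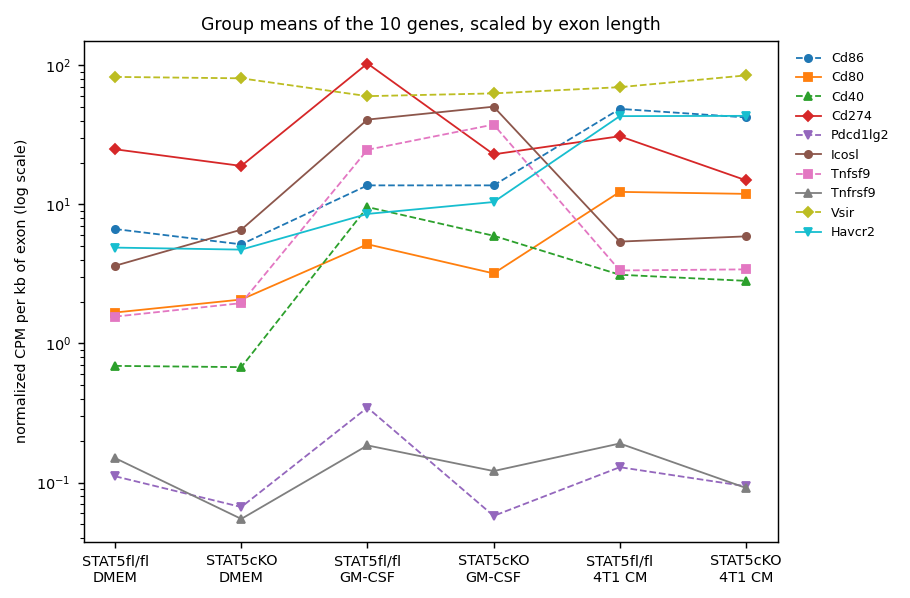
Group means of the 10 genes in normalized CPM per kb of exon (y axis, log scale) in the 6 groups of genotype and treatment (x axis); lines join the means of 1 gene, which come from 2 libraries (STAT5fl/fl) or 3 (STAT5cKO). Cd274 leads at 103 CPM per kb in STAT5fl/fl with rmGM-CSF and is at 22.9 in STAT5cKO, and Pdcd1lg2 and Tnfrsf9 stay lowest in each group.

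The first question was how BMDMs without STAT5 differed from STAT5fl/fl BMDMs within a treatment. Calls were most frequent in rmGM-CSF, where Cd274, Cd80 and Cd40 were lower and Tnfsf9 was higher in STAT5cKO. A gene was called at an adjusted p under 0.01 in edgeR's quasi-likelihood test over 13005 genes. In rmGM-CSF, 4 of the 8 genes were called, 3 lower and 1 higher, beside 10.2% of all genes tested (6.32% lower and 3.87% higher). In DMEM, 1 gene (Cd274) was called, lower, beside 2.39% of all genes (0.93% higher and 1.46% lower), and in 4T1 CM 1 gene (Cd274 again) was lower, beside 7.64% (4.15% higher and 3.48% lower). The median log2 difference over the 8 genes was -0.03 in DMEM, 0.03 in rmGM-CSF and -0.02 in 4T1 CM, and that over all genes was within 0.01 of 0 in each. The groups did not overlap for 4 of the 8 genes in DMEM, 5 in rmGM-CSF and 3 in 4T1 CM, beside 39.9%, 49% and 39.3% of all genes.

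Cd274, the gene of PD-L1, was lower in STAT5cKO under all 3 treatments. In rmGM-CSF it reached 366 and 378 CPM in the STAT5fl/fl libraries and 75.3, 82.6 and 90.4 CPM in the STAT5cKO libraries. The lowest STAT5fl/fl value was far above the highest STAT5cKO value, and the mean was 4.50-fold lower in STAT5cKO (log2 difference -2.17, SE 0.0754, adjusted p = 4.85e-14, edgeR). In 4T1 CM the values were 114 and 111 CPM against 54.5, 53.1 and 54.2 CPM, again apart, and the mean was 2.08-fold lower (log2 difference -1.06, SE 0.0772, adjusted p = 1.66e-08, edgeR). Both calls held under every alternative run, with adjusted p of at most 6.62e-11 and 3.09e-05. In DMEM the values were 98.1 and 82.2 CPM against 71.2, 67.5 and 66.7 CPM. These did not overlap either, but the step was smaller, 1.32-fold (log2 difference -0.40, SE 0.0771, adjusted p = 0.00361, edgeR). That call was lost without mouse 112 (log2 difference -0.26, adjusted p = 0.147), without mouse 115 (adjusted p = 0.0239) and without mouse 116 (adjusted p = 0.0161). In bulk RNA, fewer cells with a transcript and less of it per cell cannot be told apart. The summed dendritic cell markers, nearly all Itgax, also lay apart in rmGM-CSF, at 45.2 to 52.9 CPM in STAT5fl/fl and 31.7 to 39.9 CPM in STAT5cKO. The genotypes did not overlap there for 49% of all genes. Itgax itself was not called (log2 difference -0.48, SE 0.174, adjusted p = 0.0821, edgeR). The part of these markers in the results in rmGM-CSF was not tested.

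Cd80 and Cd40 were lower in STAT5cKO in rmGM-CSF and were not called in DMEM or 4T1 CM. Cd80, one of the ligands of CD28, had 19.9 and 18.4 CPM in STAT5fl/fl and 11.2, 11.2 and 13.0 CPM in STAT5cKO. The groups were apart, with a 1.63-fold lower mean in STAT5cKO (log2 difference -0.70, SE 0.129, adjusted p = 0.000605, edgeR). Without mouse 112 the adjusted p was 0.0184. In DMEM the order was the other way round, 5.64 and 6.71 CPM against 7.91, 6.75 and 8.28 CPM, and that difference, though the libraries did not overlap, was not called (log2 difference 0.31, adjusted p = 0.242, edgeR). In 4T1 CM the Cd80 libraries overlapped, at 42.8 and 48.1 CPM against 36.8, 49.7 and 46.2 CPM (log2 difference -0.04, 95% interval -0.27 to 0.20).

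Cd40, through which helper T cells activate macrophages, had 32.8 and 32.4 CPM in STAT5fl/fl and 20.6, 19.7 and 20.6 CPM in STAT5cKO in rmGM-CSF. The spread within each genotype was small beside the gap, and the mean was 1.61-fold lower in STAT5cKO (log2 difference -0.69, SE 0.156, adjusted p = 0.00465, edgeR). The call was lost without mouse 112 (adjusted p = 0.0443), 113 (0.0523) or 114 (0.0267), with log2 differences between -0.70 and -0.66 over all alternatives. In DMEM Cd40 was low in both genotypes, 2.5 and 2.19 CPM against 2.48, 1.87 and 2.55 CPM, and in 4T1 CM it ranged over 9.11 and 12.1 CPM against 10.2, 6.76 and 11.8 CPM. The genotypes overlapped in both (log2 differences -0.02, 95% interval -0.56 to 0.51, and -0.14, 95% interval -0.51 to 0.23).

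Tnfsf9 was higher in STAT5cKO in rmGM-CSF, and Icosl had higher values there in DMEM and in rmGM-CSF that were not called. Tnfsf9, the gene of 4-1BBL, had 33.3 and 30.4 CPM in STAT5fl/fl and 44.5, 49.0 and 51.6 CPM in STAT5cKO in rmGM-CSF, with all STAT5cKO libraries above (log2 difference 0.60, SE 0.110, adjusted p = 0.000524, edgeR). The call held under every alternative run, with an adjusted p of at most 0.00995. In DMEM (1.55 and 2.49 against 2.35, 2.48 and 2.72 CPM) and 4T1 CM (4.72 and 3.92 against 4.45, 4.06 and 4.67 CPM) its genotypes overlapped.
Icosl, the ligand of ICOS, had 16.5 and 17.0 CPM against 31.4, 29.2 and 30.6 CPM in DMEM. The libraries were tightly grouped and apart (log2 difference 0.86, SE 0.199), yet the gene was not called (adjusted p = 0.026, edgeR). It was called with the mouse as a random block (adjusted p = 0.00673, limma voom), with the spread taken from the DMEM libraries alone (adjusted p = 5.89e-05, edgeR) and by DESeq2 (adjusted p = 0.00137). In rmGM-CSF the values were 178 and 198 against 250, 229 and 219 CPM, not overlapping and not called (log2 difference 0.31, SE 0.168, adjusted p = 0.252, edgeR), and called with the rmGM-CSF libraries alone (adjusted p = 0.00193, edgeR). In 4T1 CM the Icosl libraries overlapped, at 20.1 and 29.8 against 25.9, 21 and 34.8 CPM.

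Cd86, Vsir and Havcr2 were not called between genotypes in any treatment. Cd86, the other ligand of CD28, had 25.0 and 23.7 CPM against 18.8, 17.4 and 20.5 CPM in DMEM, apart but past the threshold only by DESeq2 (adjusted p = 0.00817) or with no filter on low counts (0.00145, edgeR), beside 0.0179 in edgeR as run here. In rmGM-CSF its libraries overlapped, 48.7 and 51.6 against 51.1, 45.4 and 54.5 CPM, and the log2 difference was 0.00 with a 95% interval of -0.17 to 0.17. In 4T1 CM they were apart again, 170 and 186 against 146, 158 and 159 CPM (log2 difference -0.20, adjusted p = 0.0842, edgeR).
Vsir, the gene of VISTA, had 346 and 352 CPM in STAT5fl/fl and 400, 457 and 416 CPM in STAT5cKO in 4T1 CM. These were apart, with a log2 difference of 0.28 (SE 0.0750, adjusted p = 0.0145, edgeR), called by DESeq2 (0.00346) and without the filter (0.00159, edgeR). In DMEM (399 and 428 against 414, 379 and 420 CPM) and rmGM-CSF (310 and 292 against 336, 289 and 319 CPM) Vsir overlapped.
Havcr2, the gene of TIM-3, overlapped between genotypes in all 3 treatments. Its 95% intervals were wide, from -0.69 to 0.60 in DMEM, from -0.305 to 0.904 in rmGM-CSF and from -0.52 to 0.53 in 4T1 CM. Within each genotype its libraries kept 1 order of mice, with mouse 112 above 113 and mouse 115 highest, under all 3 treatments.

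**Figure D3:**
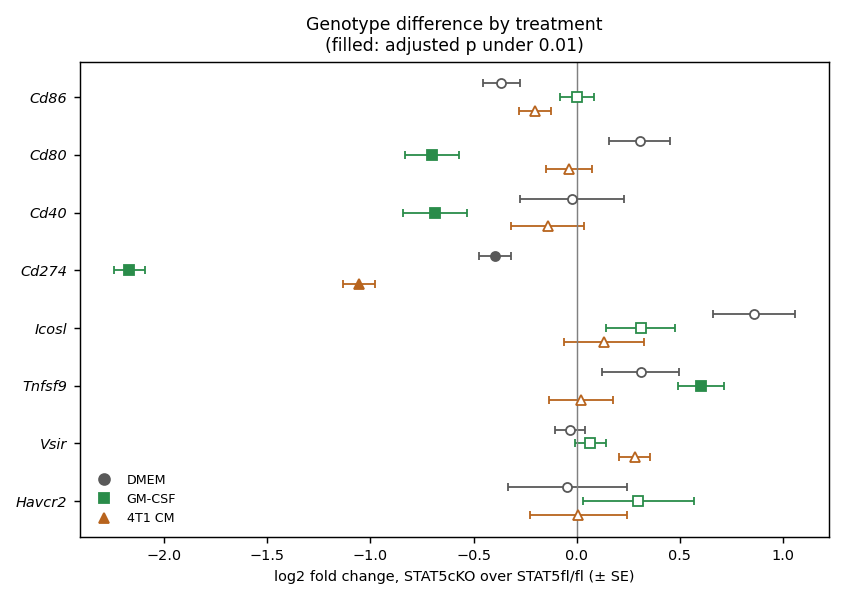
Log2 fold change of STAT5cKO over STAT5fl/fl (x axis, bars ± SE from the fit to 15 libraries) for the 8 tested genes (y axis) in DMEM (circles), rmGM-CSF (squares) and 4T1 CM (triangles); filled symbols have an adjusted p under 0.01. Cd274 is the gene with filled symbols in all 3 treatments, at -0.40, -2.17 and -1.06.

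Pdcd1lg2 and Tnfrsf9 were near the limit of detection at this depth. Pdcd1lg2, the gene of PD-L2, had 8 and 16 counts in STAT5fl/fl and 6, 1 and 0 counts in STAT5cKO in rmGM-CSF. The genotypes did not overlap there, at 0.499 and 0.859 against 0 to 0.294 CPM. In DMEM it had 4 and 6 against 2, 5 and 2 counts, and in 4T1 CM 3 and 7 against 4, 1 and 7 counts. A count of 0 allows up to 3 reads. Tnfrsf9, the gene of 4-1BB, ranged from 0 to 17 counts over all libraries, and 17 and 1 counts were the values of the 2 STAT5fl/fl libraries in DMEM. Neither gene passed the filter on low counts, and differences between their groups were not tested.

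The second question was how each genotype responded to the treatments. These comparisons use the same DMEM libraries for rmGM-CSF and for 4T1 CM, so the responses are not independent of each other. In rmGM-CSF against DMEM, 6 of 8 genes rose and 1 fell in STAT5fl/fl, beside 28.8% of all genes called (16% higher, 12.8% lower), and 7 rose and 1 fell in STAT5cKO, beside 23.8% (13.5% and 10.3%). In 4T1 CM against DMEM, 6 rose and 0 fell in STAT5fl/fl, beside 37.4% (19.2% and 18.2%), and 5 rose and 1 fell in STAT5cKO, beside 37.3% (19% and 18.3%). The dendritic cell markers moved with treatment too: their sum went from 18.9 to 25.8 CPM in DMEM to 45.2 to 52.9 CPM in rmGM-CSF and 45 to 54 CPM in 4T1 CM in STAT5fl/fl, and from 21.7 to 29.5 CPM to 31.7 to 39.9 CPM and 38.9 to 52.1 CPM in STAT5cKO. Itgax, which makes up most of that sum, rose in STAT5fl/fl (log2 change 1.12, adjusted p = 0.000463, in rmGM-CSF and 1.20, adjusted p = 0.000188, in 4T1 CM, edgeR) and in STAT5cKO in 4T1 CM (0.85, adjusted p = 0.000516), and was not called in STAT5cKO in rmGM-CSF (0.51, adjusted p = 0.0255). Their part in the responses was not tested. The median log2 change of the 8 genes was 1.84 and 1.28 for rmGM-CSF and 1.63 and 1.43 for 4T1 CM, in STAT5fl/fl and STAT5cKO, and that over all genes was within 0.02 of 0. The libraries of rmGM-CSF and DMEM did not overlap for any of the 8 genes, beside 71.7% of all genes in STAT5fl/fl and 48.2% in STAT5cKO. Those of 4T1 CM and DMEM did not overlap for 8 genes in STAT5fl/fl, beside 74.2%, and for 6 in STAT5cKO, beside 54.5%.

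Tnfsf9, Cd40 and Icosl had the largest responses to rmGM-CSF among the 8 genes, in both genotypes. Tnfsf9 rose 15.6-fold in STAT5fl/fl (log2 change 3.97, SE 0.159, adjusted p = 9.47e-14, edgeR) and 19.1-fold in STAT5cKO (4.26, SE 0.124, adjusted p = 8.51e-16). Cd40 rose 13.9-fold in STAT5fl/fl (log2 change 3.79, SE 0.217) and 8.77-fold in STAT5cKO (3.13, SE 0.180). Icosl rose 11.2-fold (log2 change 3.49, SE 0.212) and 7.66-fold (2.94, SE 0.165). Whether the response differed between genotypes was not shown for these 3 genes: the interaction of genotype with rmGM-CSF was 0.29 for Tnfsf9 (95% interval -0.17 to 0.75, adjusted p = 0.664, edgeR), -0.66 for Cd40 (-1.29 to -0.04, adjusted p = 0.3) and -0.55 for Icosl (-1.12 to 0.02, adjusted p = 0.365). With the DMEM and rmGM-CSF libraries alone the adjusted p for Icosl was 0.00171.

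Cd274 and Cd80 had a response to rmGM-CSF that differed between genotypes. Cd274 rose 4.13-fold in STAT5fl/fl (log2 change 2.05, SE 0.0856, adjusted p = 1.71e-13, edgeR) and 1.21-fold in STAT5cKO (0.27, SE 0.0701, adjusted p = 0.00491), where the call was lost without mouse 115 (adjusted p = 0.0506) or 116 (0.11). The interaction was -1.77 (SE 0.109, adjusted p = 2.48e-09, edgeR). Cd80 rose 3.09-fold in STAT5fl/fl (log2 change 1.63, SE 0.151) and 1.54-fold in STAT5cKO (0.62, SE 0.124, adjusted p = 0.000626, edgeR), with an interaction of -1.01 (SE 0.196, adjusted p = 0.00264, edgeR). That interaction lost its call without mouse 112 (-0.84, adjusted p = 0.11), 113 (0.0228) or 116 (0.0111). These 2 were the genes called for this interaction, both lower, beside 3.17% of all genes (0.923% higher and 2.25% lower).

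Cd86, Havcr2 and Vsir responded to rmGM-CSF by smaller steps. Cd86 rose 2.06-fold in STAT5fl/fl (log2 change 1.04, SE 0.0944) and 2.66-fold in STAT5cKO (1.41, SE 0.0784), with an interaction that was not called (0.37, adjusted p = 0.108, edgeR). Havcr2 went from 14.6 and 12.1 CPM in DMEM to 26.7 and 19.8 CPM in STAT5fl/fl, which was not called (log2 change 0.80, SE 0.309, adjusted p = 0.0645, edgeR) but was with the mouse as a block (0.80, adjusted p = 3.45e-07). In STAT5cKO it rose from 9.75, 15.7 and 13.1 CPM to 23.7, 35.3 and 26.1 CPM (log2 change 1.15, SE 0.247, adjusted p = 0.00492, edgeR), not called without mouse 114 (0.0152) or 116 (0.0498), nor without the filter (0.012). Vsir fell by 0.46 in STAT5fl/fl (adjusted p = 0.000148, edgeR) and by 0.36 in STAT5cKO (adjusted p = 0.00027) on the log2 scale, and without mouse 113 the adjusted p in STAT5fl/fl was 0.0387.

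In 4T1 CM the leading genes were others. Havcr2 rose 8.82-fold in STAT5fl/fl (log2 change 3.14, SE 0.296, adjusted p = 8.33e-06, edgeR) and 9.15-fold in STAT5cKO (3.19, SE 0.242, adjusted p = 1.28e-06), from at most 15.7 CPM in DMEM to 136 and 98.5 CPM in STAT5fl/fl and 98.6, 142 and 113 CPM in STAT5cKO. Cd86 rose 7.31-fold and 8.18-fold (log2 changes 2.87, SE 0.0939, and 3.03, SE 0.0782). Cd80 rose 7.34-fold and 5.78-fold (2.88, SE 0.145, and 2.53, SE 0.115), and Cd40 4.51-fold and 4.16-fold (2.17, SE 0.229, and 2.06, SE 0.188), in STAT5fl/fl and STAT5cKO respectively. For these 4 genes the interaction of genotype with 4T1 CM was not called, with 95% intervals of -0.78 to 0.89 for Havcr2, -0.08 to 0.41 for Cd86, -0.73 to 0.04 for Cd80 and -0.76 to 0.53 for Cd40. Tnfsf9 rose 2.13-fold and 1.74-fold (log2 changes 1.09, SE 0.191, and 0.80, SE 0.148), and in STAT5fl/fl this was not called without mouse 112 (0.65, adjusted p = 0.0338, edgeR). Icosl was not called in either genotype (log2 change 0.57, adjusted p = 0.0491, in STAT5fl/fl and -0.16, adjusted p = 0.471, in STAT5cKO, edgeR), nor was Vsir (-0.25, adjusted p = 0.0176, and 0.07, adjusted p = 0.411).

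Cd274 moved in opposite directions in 4T1 CM. It rose from 98.1 and 82.2 CPM in DMEM to 114 and 111 CPM in STAT5fl/fl, a 1.24-fold step (log2 change 0.31, SE 0.0843, adjusted p = 0.00428, edgeR). It fell from 71.2, 67.5 and 66.7 CPM to 54.5, 53.1 and 54.2 CPM in STAT5cKO, a 1.27-fold step (-0.35, SE 0.0709, adjusted p = 0.000414, edgeR). The treatments did not overlap in either genotype. The rise in STAT5fl/fl lost its call without mouse 113 (0.21, adjusted p = 0.169) and with those libraries alone (adjusted p = 0.0186). The interaction was -0.66 (SE 0.110, adjusted p = 0.00136, edgeR), the 1 call among the 8 genes beside 1.5% of all genes (0.9% higher and 0.6% lower), and it was lost without mouse 113 (-0.56, adjusted p = 0.0555) or 115 (0.0112). The epithelial marker list stayed at or below 4.34 CPM in 4T1 CM, nearly all of it Cdh1, with at most 4 counts of Epcam, 1 of Krt8 and 2 of Krt18 in any library.

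**Figure D4:**
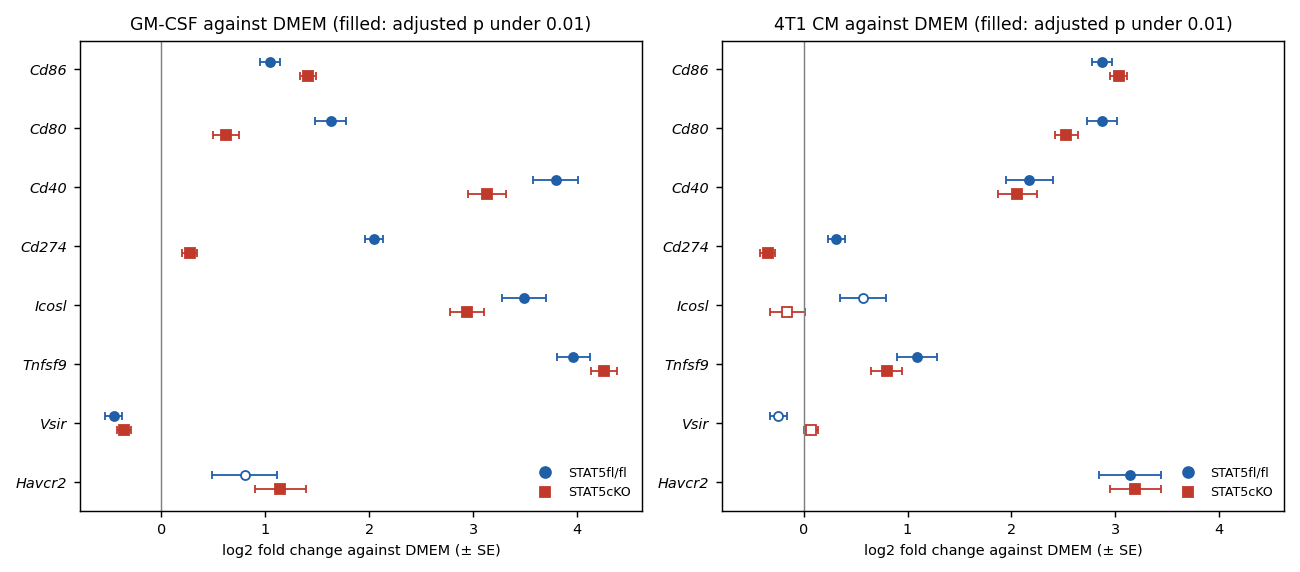
Log2 fold change against DMEM (x axis, bars ± SE from the fit to 15 libraries) for rmGM-CSF (left) and 4T1 CM (right) in STAT5fl/fl (circles) and STAT5cKO (squares) for the 8 tested genes (y axis); filled symbols have an adjusted p under 0.01. In rmGM-CSF, Cd274 is at 2.05 in STAT5fl/fl and 0.27 in STAT5cKO, and in 4T1 CM it is at 0.31 and -0.35.

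Set against each other, 4T1 CM and rmGM-CSF split 7 of the 8 genes the same way in both genotypes. Cd86, Cd80 and Havcr2 were higher in 4T1 CM, by 1.83, 1.25 and 2.34 in STAT5fl/fl and by 1.62, 1.91 and 2.05 in STAT5cKO on the log2 scale. Cd40, Cd274, Icosl and Tnfsf9 were higher in rmGM-CSF, with log2 differences of -1.62, -1.73, -2.92 and -2.88 for 4T1 CM over rmGM-CSF in STAT5fl/fl and -1.08, -0.62, -3.10 and -3.46 in STAT5cKO. Vsir was higher in 4T1 CM in STAT5cKO (0.43, adjusted p = 2.49e-05, edgeR) and was not called in STAT5fl/fl (0.21, adjusted p = 0.041). In all, 7 of 8 genes were called in STAT5fl/fl (3 higher and 4 lower, beside 31.1% of all genes, 14% higher and 17.1% lower) and 8 of 8 in STAT5cKO (4 and 4, beside 34.1%, 16.5% and 17.5%). The libraries of these treatments did not overlap for any of the 8 genes in either genotype, beside 70.4% and 54.8% of all genes. These are the same libraries that were set against DMEM above.

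The 8 genes fell into patterns when their log2 CPM was compared over the 15 libraries, which share 5 mice and 3 treatments, and this is a description only. Cd86, Cd80 and Havcr2 followed each other (Pearson r of 0.966 for Cd86 with each of the others and 0.943 for Cd80 with Havcr2), as did Icosl and Tnfsf9 (0.966). Cd40 was nearest to Tnfsf9 (0.866), and Vsir ran opposite to Tnfsf9 (-0.839), Icosl (-0.835), Cd40 (-0.764) and Cd274 (-0.684). Cd274 had no close positive partner among the 8, with 0.536 for Cd40 as its highest value.
Among all genes tested, the 3 most like Cd86 were Lyn (0.993), Tgm2 (0.993) and Stat3 (0.992), and those most like Cd80 were AI504432 (0.991), Cemip2 (0.985) and Srgn (0.984). For Cd40 they were Nod2 (0.994), Mir155hg (0.992) and Pim1 (0.989), and for Cd274 Atp6v0a1 (0.977), Lrp12 (0.974) and Sav1 (0.971). For Icosl they were Tnf (0.985), Nfkbiz (0.985) and Cd69 (0.982), and for Tnfsf9 Nfkbia (0.990), Cxcl1 (0.988) and Cxcl2 (0.986). For Vsir they were Ctc1 (0.942), Jade1 (0.922) and Rnf122 (0.914), and for Havcr2 Slc41a2 (0.988), Pmepa1 (0.985) and Rnf149 (0.985).

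Other genes of the same pathways were counted by fixed lists, given as counts with their medians. The shares called over all genes were 2.39% in DMEM, 10.2% in rmGM-CSF and 7.64% in 4T1 CM, and the medians over all genes were 0.00, 0.00 and 0.01. Of 8 genes listed as further B7 and butyrophilin family, 2 passed the filter on low counts, Cd276 and Tnfrsf14. Tnfrsf14 is a TNF receptor family member, so the list's medians rest on 1 B7 gene and 1 TNF receptor gene. Of these, 0 were called between genotypes in any treatment (median log2 differences -0.14, 0.07 and 0.24 in DMEM, rmGM-CSF and 4T1 CM). Of 6 further TNF family costimulatory ligands, 5 passed and 0 were called between genotypes (medians 0.26, 0.52 and 0.79). The median in rmGM-CSF was that of a gene at 2.32 CPM in STAT5cKO against 1.63 CPM in STAT5fl/fl. That in 4T1 CM was of a gene at 0.478 against 0.271 CPM, near the limit of detection. Of 11 genes listed as nectins and other ligands of T cell receptors, all 11 passed. Cd200r1 and Sirpa in that list are themselves receptors of myeloid cells. In STAT5cKO, 1 of the 11 was higher in DMEM, 2 were lower in rmGM-CSF, and 2 were higher and 1 lower in 4T1 CM (medians 0.07, -0.11 and 0.14). Of 12 T cell counter-receptors, 2 passed, with 1 lower in DMEM, 1 lower in rmGM-CSF and 0 called in 4T1 CM (medians -0.42, -0.25 and 0.23). With 2 genes the median lies midway between them. In 4T1 CM, Cd28 had a log2 difference of 0.00 and the other gene 0.45, at 0.969 against 0.708 CPM, not called. Of 10 genes of CD40 and 4-1BB signalling, all 10 passed, with 1 higher in DMEM, 2 higher and 3 lower in rmGM-CSF, and 3 higher and 1 lower in 4T1 CM (medians 0.18, 0.00 and 0.19).

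Within the signalling list, Traf6, an adaptor used by CD40 and Toll-like receptors, was lower in STAT5cKO in rmGM-CSF (82.3 ± 1.57 against 156 ± 6.38 CPM, mean ± SD, n = 3 and 2, adjusted p = 2.61e-09, edgeR) and in 4T1 CM (55.0 ± 3.87 against 82.0 ± 4.74 CPM, adjusted p = 6.52e-06). Traf1, an adaptor of 4-1BB, was higher in STAT5cKO in all 3 treatments, for example in 4T1 CM (77.1 ± 4.45 against 40.6 ± 4.83 CPM, adjusted p = 1.95e-06, edgeR). Map3k14, the NF-kB inducing kinase, was higher in STAT5cKO in rmGM-CSF (30.3 ± 2.98 against 21.1 ± 2.30 CPM) and in 4T1 CM (152 ± 9.97 against 117 ± 8.67 CPM).
Within the list of nectins and other ligands, Pvr, which binds TIGIT and CD226, was lower in STAT5cKO in rmGM-CSF (39.0 ± 4.26 against 51.2 ± 1.45 CPM, adjusted p = 0.00353, edgeR). In 4T1 CM Pvr was higher (72.6 ± 3.05 against 46.6 ± 2.14 CPM, adjusted p = 4.04e-05, edgeR). Nectin2, its relative, was higher in DMEM (16.5 ± 0.808 against 10.8 ± 0.147 CPM) and in 4T1 CM (19.0 ± 2.55 against 14.1 ± 0.905 CPM). Cd200r1, an inhibitory receptor of myeloid cells, was lower in rmGM-CSF (67.1 ± 3.89 against 98.5 ± 6.53 CPM) and in 4T1 CM (102 ± 9.93 against 147 ± 17.2 CPM).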

How the data were processed

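Stranded RNA libraries of 15 BMDM cultures were analysed from the table of raw counts per gene deposited by the authors. Per the file headers and the submitters' processing notes, reads were trimmed with Trimmomatic 0.33, aligned to GRCm38 with HISAT2 2.1.0 and counted with featureCounts 1.6.2 (both read ends mapped, mapping quality at least 10, reverse strand, Ensembl release 99). Libraries made with another conditioned medium, named in the file's header, were not analysed here. Symbols matched 55144 of 55385 gene IDs.

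Genes over 1 CPM in at least 2 libraries were kept (13005). Counts were scaled by relative log expression factors (0.945 to 1.08), and 1 model of 6 groups over all 15 libraries was fitted with edgeR 4.0.16 (quasi-likelihood F test, robust, in R 4.3.3), with Benjamini-Hochberg adjustment over all genes of a comparison and a threshold of 0.01. The SE is the log2 change divided by the square root of F, and intervals are 95%. No libraries held identical counts. Libraries with the same number were taken as the same mouse: their deviations from the group means correlated at 0.0548 to 0.214 over 15 pairs, 11 of them over 0.1. In groups of 2 libraries the deviations mirror each other. Mice 112 and 113 therefore gave the same values, which these pairs count for both mice. The main model held no mouse term, so libraries of the same mouse entered as separate libraries. The p-values measure the spread between libraries within the 6 groups, estimated with information shared over genes, and reach no further than these mice. A count of 0 allows 3 reads, for counting error only.

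Alternatives were a threshold of 0.05, TMM factors, no filter, filterByExpr, only the libraries compared, a mouse block (a fixed term within a mouse, or a random effect in limma 3.58.1 voom between genotypes), DESeq2 1.42.0 and leaving out each mouse. All 10 genes are named in every comparison; from the other lists, at most 3 called genes with the smallest adjusted p in rmGM-CSF or 4T1 CM; and for each tested gene the 3 most correlated. The members and lists were chosen with earlier results of these data known.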

Additional observations from a re-analysis of the deposited data

Results flagged for a closer look

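The effect of genotype differed between treatments, by an interaction term in edgeR, for 3 results. For Cd274 the log2 difference of STAT5cKO from STAT5fl/fl in rmGM-CSF was lower than that in DMEM by an interaction of -1.77 (SE 0.109, adjusted p = 2.48e-09), and the libraries did not overlap between the genotypes in either treatment. For Cd274 in 4T1 CM the interaction was -0.66 (SE 0.110, adjusted p = 0.00136). For Cd80 in rmGM-CSF it was -1.01 (SE 0.196, adjusted p = 0.00264), with all STAT5cKO libraries below STAT5fl/fl in rmGM-CSF. In DMEM they lay above by a narrow margin, 6.75 CPM at the lowest against 6.71 CPM, and that difference was not called (adjusted p = 0.242, edgeR). The interactions for Cd274 in 4T1 CM and for Cd80 lost their calls in some of the fits with a mouse left out. All 3 interactions use the same 5 DMEM libraries.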

How the results depend on the processing

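Groups of 2 and 3 mice limit precision, and Pdcd1lg2 and Tnfrsf9, with at most 17 counts, were not tested. No called result for a single gene changed direction, though uncalled log2 differences could change sign, as for Cd40 between genotypes in DMEM (-0.12 to 0.10). Over the alternatives, 1016 kept their side of the threshold, 21 lost a call and 19 gained one. The number of genes called between genotypes was 1 in DMEM, and it became 3 at a threshold of 0.05 and by DESeq2, 2 with no filter, with only the libraries compared and with the replicate block as a random effect, and 0 to 1 when 1 mouse was left out. In 4T1 CM the 1 call became 2 at 0.05, with no filter and by DESeq2. In rmGM-CSF the 4 calls became 5 with only the libraries compared. Leaving out 1 mouse moved the 4 calls in rmGM-CSF to 2 to 4, the 2 calls for the interaction with rmGM-CSF to 1 to 2, and the 1 call for the interaction with 4T1 CM to 0 to 1. The cause was not tested. The replicate block changed no calls other than those of Icosl between genotypes in DMEM and Havcr2 in rmGM-CSF against DMEM in STAT5fl/fl (log2 change 0.80 with the block).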

Other observations

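Cd28, the T cell receptor for CD80 and CD86, was counted at a level unlike that of other T cell genes. Its mean was 522 ± 2.68 CPM (SD, n = 2) in STAT5fl/fl and 351 ± 11.3 CPM (n = 3) in STAT5cKO in DMEM (log2 difference -0.57, SE 0.0654, adjusted p = 2.4e-05, edgeR), and 321 ± 2.27 against 249 ± 18.7 CPM in rmGM-CSF (adjusted p = 0.000534). In 4T1 CM it was 110 ± 3.35 against 110 ± 5.59 CPM. Cd3e had at most 2 counts in any library.

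Kit and Cdh1 are named here after their values were seen. Kit had 18.0 ± 3.01 CPM in STAT5fl/fl and 6.44 ± 1.55 CPM in STAT5cKO in DMEM, which was not called (adjusted p = 0.0224, edgeR), and 21.5 ± 2.84 against 5.31 ± 1.33 CPM in rmGM-CSF (adjusted p = 0.0018, edgeR). In 4T1 CM it had 7.21 ± 1.37 against 2.29 ± 1.55 CPM, not called (adjusted p = 0.0199, edgeR), while Cpa3, Mcpt4 and Ms4a2 were at 0. Cdh1 had 0 counts in both STAT5fl/fl libraries in DMEM, 21 in both in rmGM-CSF and 63 and 84 in 4T1 CM, against 0 to 1, 0 to 1 and 24 to 47 counts in STAT5cKO.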
